A study of Mus musculus with 16 samples.

Results

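The genes described here are 10 with large falls in mouse AtT-20 pituitary cells that carry Pax7: Prlr, Fxyd3, Lgi4, Spon2, Spock1, Fabp2, Sec16b, Uox, Hpd and Gldc. They were picked by symbol, 10 of the 24063 genes present in both expression tables, for low values either after Pax7 was activated or in cells that express it constantly. Their levels against the controls are therefore a description of how they were chosen, and no test is given for those levels. No numeric threshold was part of the choice. At 96 h Spock1 was the gene with the 14th lowest log2 fold of 15188 tested genes (-1.67), Dgkb, which was not picked, came next at -1.67, and Mgll, also not picked, was the lowest at -2.42.

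AtT-20 is a mouse corticotrope tumour line, a model of the pituitary cells that make corticotropin from the Pomc precursor. Total RNA depleted of ribosomal RNA was sequenced in 16 libraries. In 12 of them the cells carried a flag-tagged ER-Pax7 fusion and were either non-treated (0 h) or given 4-hydroxytamoxifen for 12, 24 or 96 h, with 3 libraries each. In the other 4 the cells were non-treated and carried flag-tagged Neo or flag-tagged Pax7, with 2 libraries each. The 0 h control thus carries the ER-Pax7 transgene, and the Neo control carries none for Pax7. No group received 4-hydroxytamoxifen without ER-Pax7, so the ligand and the fusion cannot be told apart, and each later time point also differs from 0 h in time. The labels do not say how the Neo and Pax7 cell populations were made, so other differences between the 2 cannot be told apart from Pax7. Whether replicates were grown as separate cultures is not given by the labels. A p-value here sets a difference against the spread between libraries within groups. That spread is pooled over all groups of a system and drawn towards that of genes of like level, and it may be only technical.

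Pax7 is a transcription factor with a paired domain and a homeodomain. In the pituitary it directs the melanotrope fate, in which Pomc is cut to other peptides by the convertase Pcsk2, and it is known for opening closed chromatin at its target enhancers. Fusions of this kind hold a protein inactive through the ligand-binding part of the oestrogen receptor until 4-hydroxytamoxifen is added. The 10 genes come from unlike roles: a hormone receptor, an ion pump regulator, secreted and matrix proteins, a lipid carrier, a secretory pathway protein and enzymes of urate, tyrosine and glycine breakdown.

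Promoter sequence was at hand for 8 of the 10 genes, in 11 windows of 250 bases before an annotated start (RefSeq, GRCm38.p6); Spon2 and Lgi4 had no entry. Short motifs of the factor families at work in these cells were searched on both strands: TAATTA (homeodomain; its own reverse complement), TAATCC (homeodomain of the Pitx type), GTCACG (paired domain) and TCACACC (T-box, as of Tbx19). Among all 32851 windows these motifs occurred in 4.84%, 6.25%, 6.93% and 3.33%. The first 3 occurred in 0 of the 11 windows, and TCACACC occurred in 1, upstream of Prlr on the reverse strand, 33 bases before the start. A match describes letters only, and a window without one says nothing about the factor. The windows of Prlr, Fabp2 and Gldc are shown because these genes followed unlike time courses, with the match in capitals.
Prlr, chr15:10176988-10177237, plus strand: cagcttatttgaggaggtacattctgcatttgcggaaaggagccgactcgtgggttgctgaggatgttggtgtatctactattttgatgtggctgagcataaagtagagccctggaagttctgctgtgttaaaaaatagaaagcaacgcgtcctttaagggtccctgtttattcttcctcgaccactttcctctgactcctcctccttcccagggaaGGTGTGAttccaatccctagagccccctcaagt
Fabp2, chr3:122894822-122895071, plus strand: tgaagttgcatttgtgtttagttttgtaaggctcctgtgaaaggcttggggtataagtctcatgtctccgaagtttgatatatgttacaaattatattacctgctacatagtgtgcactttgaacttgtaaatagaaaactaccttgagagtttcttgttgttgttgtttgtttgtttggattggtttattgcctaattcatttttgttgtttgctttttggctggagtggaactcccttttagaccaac
Gldc, chr19:30175442-30175691, minus strand: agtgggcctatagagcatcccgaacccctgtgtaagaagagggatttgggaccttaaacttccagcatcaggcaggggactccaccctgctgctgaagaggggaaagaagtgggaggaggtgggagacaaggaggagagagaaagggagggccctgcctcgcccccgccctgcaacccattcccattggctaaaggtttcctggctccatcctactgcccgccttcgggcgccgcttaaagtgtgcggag

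Values of the ER-Pax7 libraries are exon reads scaled to a common total, here called scaled reads, and those of the Neo and Pax7 libraries are FPKM counted over whole gene bodies, so levels are not compared between the systems. Depth was 61.4 to 88.7 M read mates in the ER-Pax7 libraries and an estimated 44.2 to 54.7 M in the others. Pax7 itself stood at 1648 to 1911 scaled reads in every ER-Pax7 library, at 0 and 0.0104 FPKM in Neo and at 2.29 and 2.37 FPKM in Pax7, as the labels say. Scaled reads per kilobase of exon put the 10 genes far apart at 0 h. Fxyd3 was the most abundant at 215 per kilobase (range 202 to 227), above 78.7% of tested genes, followed by Hpd at 83.3 (82.5 to 84.3) and Prlr at 48.0 (45.1 to 49.7). The median of all tested genes was 66.1 per kilobase, so only Fxyd3 and Hpd lay above it. Gldc was the least abundant at 2.89 per kilobase (2.43 to 3.31), below Sec16b (6.96 to 8.77) and Spock1 (8.50 to 9.97), whose libraries overlap. Between them and Prlr lay Fabp2 (22.3 to 27.1), Uox (19.0 to 22.2), Spon2 (14.6 to 19.6) and Lgi4 (12.2 to 14.3), of which Uox and Spon2 overlap and Fabp2 only just clears Uox. As in any bulk sample, fewer cells of a type and less RNA per cell cannot be told apart.

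After 4-hydroxytamoxifen all 10 genes stood below 0 h, with no library of any later time inside the 0 h range. The same holds for 11.3% of all tested genes at 12 h, 15.4% at 24 h and 23.2% at 96 h, and the 10 were chosen for it. The median log2 fold of the 10 was -0.71 at 12 h, -1.22 at 24 h and -1.70 at 96 h, where that of all tested genes was 0.00 each time. At least 2-fold lower were 3 of 10 genes at 12 h, 8 at 24 h and 8 at 96 h, against 0.0856%, 0.336% and 0.915% of all tested genes. The time courses were not alike: some genes reached their low level within 12 h, others went down at every step, and Gldc was lowest at 24 h.

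**Figure D1:**
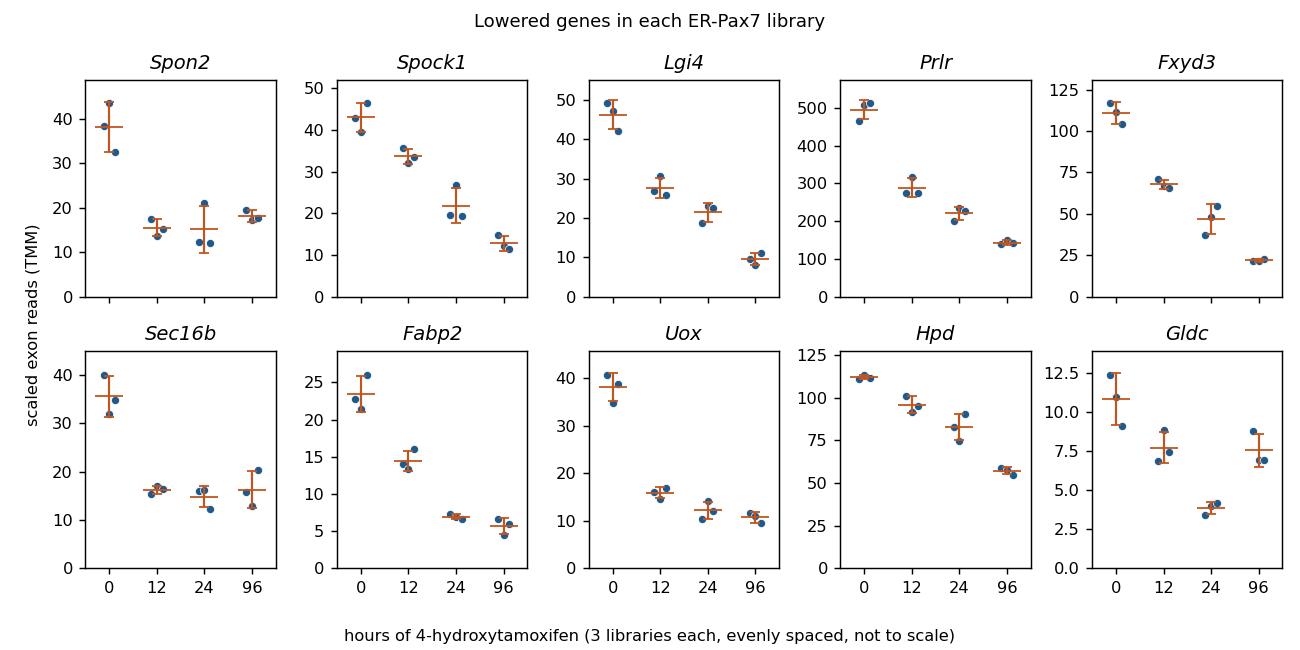
Scaled exon reads (vertical axis, from 0, a scale of its own for each gene) of the 10 genes in each ER-Pax7 library by hours of 4-hydroxytamoxifen (horizontal axis, evenly spaced); points are the 3 libraries per time and orange bars the mean and SD. Spon2 and Sec16b are near their lowest level at 12 h, Uox is lower again at 24 h, Fxyd3, Lgi4, Spock1, Prlr and Hpd are lower at each later time, and Gldc is lowest at 24 h.

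Prlr, the receptor of prolactin, spans chr15:10177238-10337020 on the plus strand. It had by far the most reads of the group, 1394 to 6283 per library. Its 3 libraries at 0 h held 466, 507 and 513 scaled reads, those at 12 h 275, 318 and 275, those at 24 h 202, 235 and 227, and those at 96 h 140, 150 and 142. The 4 times did not overlap, and the order was 0, 12, 24 and 96 h from high to low. The log2 fold against 0 h was -0.78 at 12 h, -1.16 at 24 h and -1.78 at 96 h (SE 0.06). In the Neo libraries Prlr stood at 0.353 and 0.334 FPKM and in the Pax7 libraries at 0.0957 and 0.0895 FPKM, or 27.0% of the Neo mean. On induction 29.0% of the 0 h mean was left at 96 h. The FPKM table counts Prlr over another transcript that starts further downstream, chr15:10293651-10345782.

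Fxyd3, a small membrane protein of the FXYD family that modulates the sodium pump, spans chr7:31070535-31076697 on the minus strand. Its libraries held 117, 111 and 104 scaled reads at 0 h, 70.9, 66.6 and 65.9 at 12 h, 37.5, 48.5 and 54.9 at 24 h, and 21.7, 21.6 and 23.1 at 96 h. No 2 times overlapped, and 20.0% of the 0 h mean was left at 96 h. That log2 fold of -2.27 (SE 0.10) was the 2nd lowest of all tested genes. Neo libraries stood at 1.61 and 1.85 FPKM and Pax7 libraries at 0.593 and 0.646 FPKM, or 35.8% of Neo.

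Lgi4, a secreted protein through which axons and Schwann cells signal in myelination, spans chr7:31059935-31070935 on the plus strand, and it ends inside Fxyd3. Its libraries held 49.1, 47.2 and 42.0 scaled reads at 0 h, 26.8, 30.6 and 25.8 at 12 h, 18.7, 23.0 and 22.6 at 24 h, and 9.61, 8.03 and 11.1 at 96 h. These values ran parallel to those of Fxyd3, without overlap between times, and 20.7% of the 0 h mean was left at 96 h. In Neo it stood at 0.393 and 0.459 FPKM and in Pax7 at 0.144 and 0.159 FPKM, or 35.5% of Neo.

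The 2 genes point towards each other and share sequence at their 3′ ends. In the GENCODE annotation 221 of the 439 exon bases of the main Fxyd3 transcript (50.3%) lie within the last exon of Lgi4, chr7:31068877-31070935, in its 3′ untranslated region. Over all annotated transcripts the 2 genes share 2059 exon bases, of 4850 for Fxyd3 and 4584 for Lgi4. Taken as whole gene bodies they overlap by 401 bases. The RefSeq model in the authors' table gives Fxyd3 514 exon bases. The authors' counting names no strand option, so reads from this stretch cannot be assigned to one gene. Reads of Lgi4 came to 41.6% ± 1.03 of those of Fxyd3 at 0 h (SD, n = 3), 40.9% ± 4.38 at 12 h, 46.2% ± 4.46 at 24 h and 43.1% ± 5.39 at 96 h. In the other table, where reads are estimated from FPKM over gene bodies, the share was 43.9% ± 0.61 in Neo (SD, n = 2) and 43.6% ± 0.53 in Pax7. Across the 12 ER-Pax7 libraries it ranged from 37.3% to 49.8% while Fxyd3 reads went from 1273 to 204. How much of either gene's value comes from the shared stretch was not tested, and a count below that holds both may count the same reads.

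**Figure D2:**
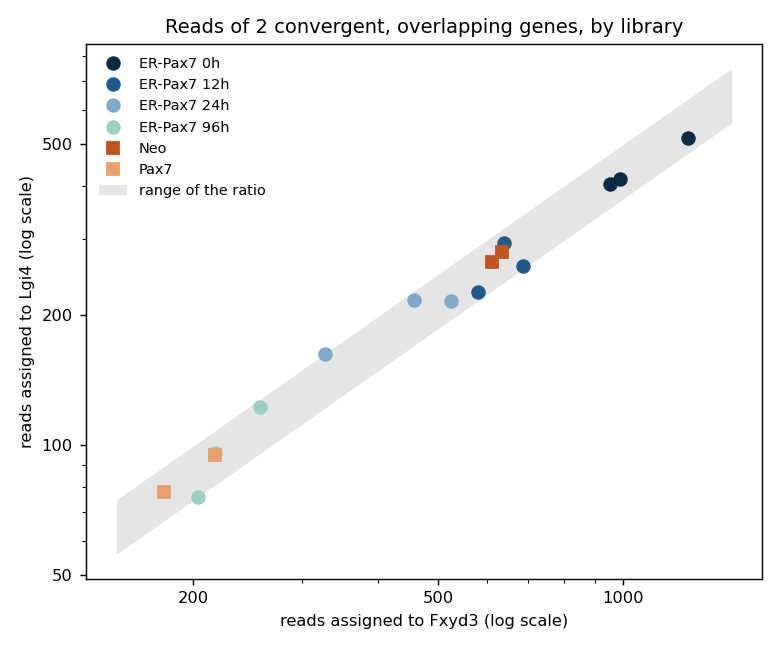
Reads assigned to Lgi4 (vertical axis) against reads assigned to Fxyd3 (horizontal axis), both on log scales, in all 16 libraries; circles are ER-Pax7 libraries by time, squares Neo and Pax7 libraries, and the grey band spans the range of the ratio. Both genes' reads move together at 37.3% to 49.8%, from 0 h and Neo at the high end to 96 h and Pax7 at the low end.

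Spon2, a secreted matrix protein of the spondin family, spans chr5:33213518-33218238 on the minus strand. Its libraries held 38.5, 43.6 and 32.5 scaled reads at 0 h, 17.5, 13.7 and 15.3 at 12 h, 12.3, 21.2 and 12.0 at 24 h, and 19.6, 17.2 and 17.7 at 96 h. The 3 later times overlap one another, so Spon2 was at its low level by 12 h, with a log2 fold of -1.24 (SE 0.17), the 5th lowest of all tested genes. In the other system no such separation was seen. Neo libraries stood at 0.796 and 0.720 FPKM and Pax7 libraries at 0.708 and 0.865 FPKM, which overlap, at 189 to 231 and 164 to 223 reads.

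Spock1, a secreted proteoglycan of the testican family, spans chr13:57426091-57908332 on the minus strand. Its libraries held 43.0, 39.6 and 46.5 scaled reads at 0 h, 35.6, 32.0 and 33.5 at 12 h, 19.6, 26.7 and 19.3 at 24 h, and 14.9, 12.3 and 11.5 at 96 h. The times did not overlap, and the decline was the slowest to begin among the genes left at 30.0% or less of 0 h. Only 20.5% of its 96 h log2 fold of -1.67 was reached by 12 h. In the FPKM table, where its gene body is 487137 bases long, Spock1 is listed at 0.0101 and 0.0104 in Neo and at 0 in both Pax7 libraries, after rounding to 2 decimals by the authors, so no fold is given. Those values were counted over another transcript, chr13:57421195-57908332.

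Fabp2, the intestinal fatty acid binding protein, carries long-chain fatty acids in the cytosol and spans chr3:122895072-122899506 on the plus strand. Its libraries held 22.7, 21.4 and 26.0 scaled reads at 0 h, 14.0, 13.4 and 16.0 at 12 h, 7.33, 6.89 and 6.70 at 24 h, and 6.60, 4.55 and 5.93 at 96 h. On the log2 scale the largest drop lay between 12 and 24 h, while in scaled reads the mean went from 23.4 to 14.5 and then to 6.98. All times were separate, the last 2 only just. At 96 h 24.3% of the 0 h mean was left, on 43 to 66 reads per library. Pax7 against Neo was another matter: 0.343 and 0.355 FPKM in Neo met 0.258 and 0.348 FPKM in Pax7, with overlap and a log2 fold of -0.16 (SE 0.13).

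Sec16b helps to organise the exit sites at which cargo leaves the endoplasmic reticulum, and spans chr1:157506796-157568424 on the plus strand. Its libraries held 40.0, 31.8 and 34.8 scaled reads at 0 h, 15.3, 17.0 and 16.3 at 12 h, 16.0, 16.1 and 12.2 at 24 h, and 15.7, 12.8 and 20.3 at 96 h. All of the decline was in place at 12 h (45.6% of 0 h), and the later times overlap. In the FPKM table it lay below the filter of 0.1 FPKM, at 0.0504 and 0.0626 in Neo and 0.0191 and 0.0298 in Pax7. These are an estimated 131 and 147 reads against 40 and 69. They were counted over another transcript that starts further downstream, chr1:157526170-157568424.

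Uox, urate oxidase, converts urate on the way to allantoin and spans chr3:146597149-146631483 on the plus strand. Its libraries held 40.7, 34.8 and 38.8 scaled reads at 0 h, 16.1, 14.7 and 16.9 at 12 h, 10.4, 14.1 and 12.0 at 24 h, and 11.7, 11.0 and 9.53 at 96 h. The 12 h log2 fold of -1.21 (SE 0.13) was 69.8% of that at 96 h (-1.74), and the 24 h and 96 h libraries overlap. Uox was also below the FPKM filter, at 0.0806 and 0.0730 in Neo and 0.0287 and 0.0398 in Pax7, an estimated 170 and 140 reads against 48 and 74.

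Hpd, 4-hydroxyphenylpyruvate dioxygenase of tyrosine breakdown, spans chr5:123171807-123182686 on the minus strand. Its libraries held 111, 114 and 112 scaled reads at 0 h, 101, 91.9 and 95.1 at 12 h, 83.2, 74.8 and 90.5 at 24 h, and 58.9, 57.7 and 54.9 at 96 h. It moved least of all at 12 h, where 85.7% of 0 h was left, and kept going to 51.0% at 96 h, with no overlap between times. In the constant system it had the lowest fold of the 6 genes that could be compared. Neo libraries stood at 1.16 and 1.18 FPKM and Pax7 libraries at 0.201 and 0.189 FPKM, 16.7% of Neo, a log2 fold of -2.11 (SE 0.05).

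Gldc, the decarboxylase of the glycine cleavage system, spans chr19:30098441-30175441 on the minus strand and had the fewest reads, 30 to 112 per library. Its libraries held 12.4, 11.0 and 9.14 scaled reads at 0 h, 6.90, 8.85 and 7.49 at 12 h, 3.44, 4.02 and 4.19 at 24 h, and 8.81, 6.98 and 6.93 at 96 h. Here 35.8% of 0 h was left at 24 h and 69.8% at 96 h, so the 96 h libraries lay above all 24 h libraries and within the range of the 12 h ones. In the FPKM table Gldc is listed at 0.0101 and 0 in Neo and at 0.00957 and 0.00994 in Pax7, where rounding leaves no comparison.

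The choice of genes did not name the steps between later times. Each step is nonetheless the difference of 2 contrasts against 0 h that were used to pick, and shares their libraries. Genes picked for low values at 24 h would tend to show a fall before that time and a rise after it. The adjusted p-values of the steps take no account of this, so nothing is read from the number of the 10 called. Between 12 and 24 h limma called 26 of 15188 genes (0.171%), 0.0988% lower and 0.0724% higher, and 5 of the 10 were among the lower ones. Fabp2 fell by 0.95 on the log2 scale (SE 0.14, adjusted p = 0.00246), Prlr by 0.39 (SE 0.06, 0.00609), Gldc by 0.84 (SE 0.16, 0.0282), Fxyd3 by 0.54 (SE 0.10, 0.0286) and Spock1 by 0.62 (SE 0.12, 0.0469). Each of these was lower in 3 of 3 libraries than all those at 12 h. The same held for Uox, Lgi4 and Hpd, so for 8 of the 10, against 6.7% of all genes. Not called were Uox (-0.36), Lgi4 (-0.36), Hpd (-0.21), Sec16b (-0.13) and Spon2 (-0.07). Fabp2 kept its call by limma without any 1 library, at adjusted p up to 0.0211, and Prlr lost it without the 24 h replicate 1 (adjusted p = 0.0730). The calls of Fxyd3 and Gldc each ended when any 1 of 6 libraries was left out, among them 0 h replicate 2, every 12 h library and 24 h replicates 1 and 2, with limma's adjusted p up to 0.226 and 0.209, and that of Spock1 with any 1 of 9 left out (up to 0.358).

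From 24 to 96 h limma called 12.7% of all genes, 6.54% lower and 6.16% higher, and 6 of the 10. At least 2-fold lower were 0.0329% of all genes and 2 of the 10, Lgi4 and Fxyd3. Lgi4 fell by 1.09 (SE 0.12, adjusted p = 5.01e-06), Fxyd3 by 1.03 (SE 0.10, 9.92e-07), Spock1 by 0.71 (SE 0.12, 0.000655), Prlr by 0.62 (SE 0.06, 1.37e-06) and Hpd by 0.52 (SE 0.07, 4.32e-05). Gldc alone was called higher, by 0.81 (SE 0.16, adjusted p = 0.00179), and was higher in 3 of 3 libraries than all those at 24 h. Its fold against 0 h was the 17th lowest of all tested genes at 24 h and the 863rd lowest at 96 h. A gene picked for its 24 h value would tend to rise after it. The test reuses those 24 h libraries, so it cannot set this rise apart from the choice. With Fxyd3 and Lgi4 counted as 1 gene, 4 of 9 fell and 1 rose. Spon2 (0.29), Sec16b (0.12), Uox (-0.16) and Fabp2 (-0.26) did not pass the test. The same folds can be put as the share of the 96 h log2 fold reached by 24 h, which adds no further observation. That share was 129% for Spon2, 111% for Sec16b, 90.7% for Uox and 85.9% for Fabp2, and 274% for Gldc, whose rise was called. Without 24 h replicate 2, whose 21.2 scaled reads are the highest of its group, Spon2 also passed (0.54, limma's adjusted p = 0.0171).

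**Figure D3:**
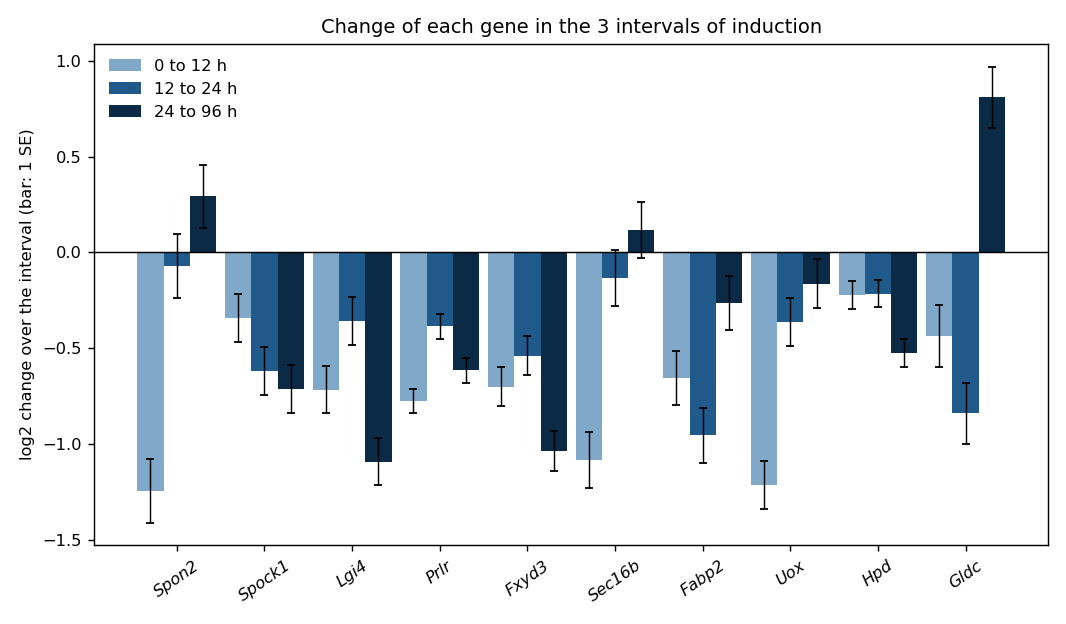
Log2 change of each gene (vertical axis) over 0 to 12 h, 12 to 24 h and 24 to 96 h (light to dark bars, error bars 1 SE of the limma fit on 3 libraries per time). Spon2, Sec16b, Uox and Prlr have their largest change in the first interval, Fabp2 and Gldc in the second, and Lgi4, Fxyd3, Hpd and Spock1 in the last, while Gldc is above 0 in the last.

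Of the 10 genes 6 reached the FPKM filter, and 4 of these (Hpd, Fxyd3, Prlr and Lgi4) were lower in both Pax7 libraries than in both Neo libraries, each by at least 2-fold. Among all 13393 genes tested there, 36.1% were lower without overlap and 0.986% at least 2-fold lower. This contrast was used to pick the genes, Prlr passed the filter through Neo alone, and Fxyd3 and Lgi4 overlap, so nothing is read from the count of 4. The log2 folds were -2.11 for Hpd, -1.34 for Fxyd3, -1.20 for Prlr and -1.06 for Lgi4, against 0.04 for Spon2 and -0.16 for Fabp2. With only values on log2(FPKM + 0.1) to hand, the fold of a gene this low is understated: without the pseudocount Prlr was at 27.0% of Neo. The rank of the genes differed between the systems. Hpd, with the smallest induction fold at 12 and 24 h, had the lowest fold of the 6 in Pax7 against Neo, and the libraries of Spon2, among the first genes down on induction, overlapped there. Whether a gene's folds differ between the systems was not tested, since the tables hold different quantities.

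**Figure D4:**
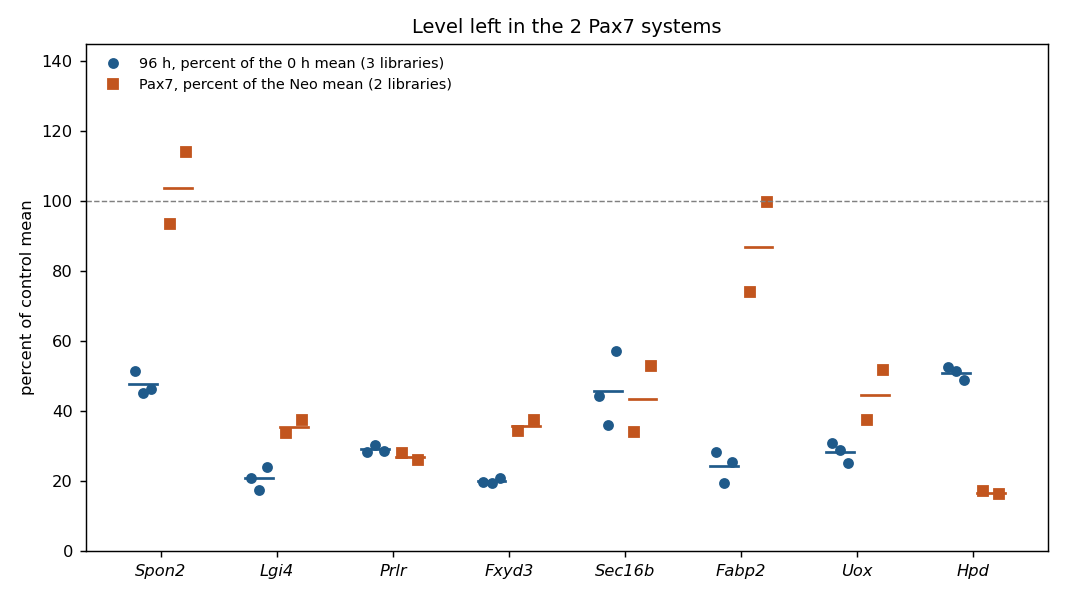
Percent of the control mean (vertical axis, from 0) left in each library for 8 of the 10 genes: blue circles are the 3 libraries at 96 h relative to 0 h, orange squares the 2 Pax7 libraries relative to Neo, short lines the means and the dashed line 100%. Spock1 and Gldc are left out because rounding of their FPKM leaves no ratio. Sec16b and Uox were below the FPKM filter. Prlr and Sec16b were counted over different transcripts in the 2 systems.

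Genes that work with the 10 were followed through lists of their pathways, and these genes were tested in every comparison. The share of all genes called by limma was 6.49% at 12 h (3.71% lower, 2.79% higher), 13.5% at 24 h (8.07% lower, 5.47% higher), 33.7% at 96 h (17.4% lower, 16.3% higher) and 36.8% for Pax7 against Neo (18.2% lower, 18.6% higher).

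Around Prlr, 9 genes of prolactin receptor signalling were tested on induction. At 96 h 4 were called lower, 2 higher and 3 not, with a median log2 fold of -0.11. Socs2, a feedback inhibitor that is itself a target of this pathway, fell by 0.88 (SE 0.10, adjusted p = 3.90e-07) at 96 h, after 0.48 at 12 h and 0.68 at 24 h. It was also lower in Pax7 than in Neo (log2 fold -1.13, adjusted p = 0.0105), a call that limma lost without Neo replicate 2 (0.0560). Stat3, a signal transducer, rose by 0.48 at 96 h (adjusted p = 1.64e-08) and was 0.45 higher in Pax7 than in Neo (0.0082). Stat5b, a main transducer of this receptor, rose by 0.20 at 96 h, Stat5a (0.09) was not called, and the kinase Jak2 fell by 0.20. Socs3 fell by 0.39 at 96 h and was 0.21 higher in Pax7 than in Neo, although leaving out any 1 of the 4 libraries ended that call. Ghr, the growth hormone receptor, fell by 0.22 at 96 h with an adjusted p of 0.0499, and leaving out any 1 of 8 libraries ended the call.

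**Figure D5:**
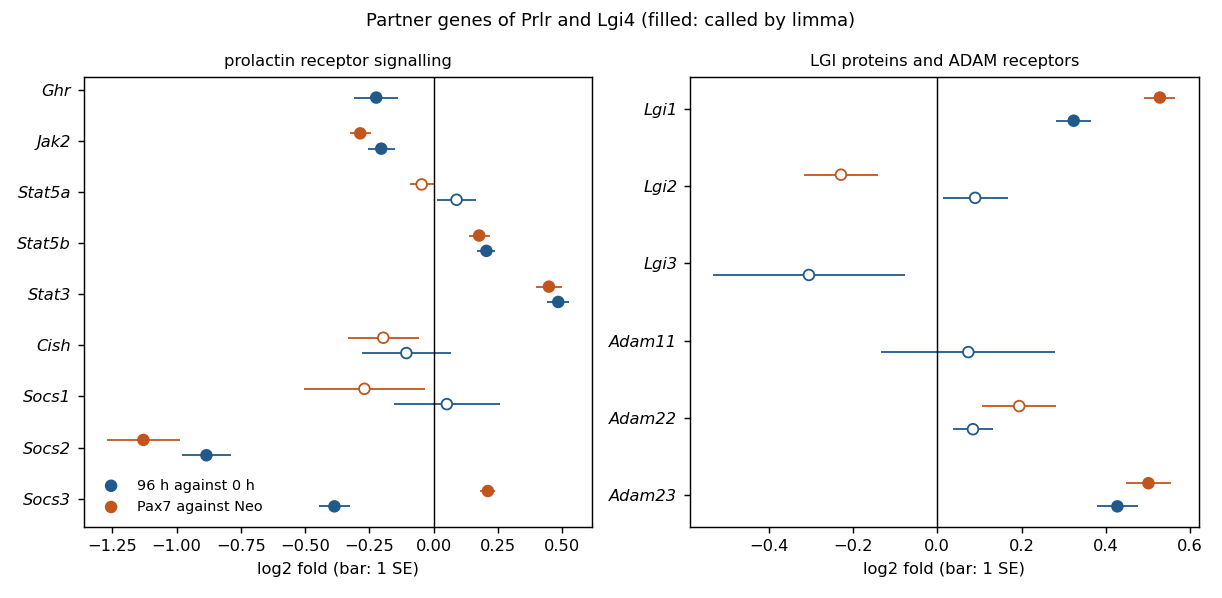
Log2 fold (horizontal axis) at 96 h against 0 h (blue) and in Pax7 against Neo (orange) of genes around Prlr (left) and Lgi4 (right), with bars of 1 SE; filled points passed limma's adjusted threshold, open ones did not. Socs2 is far below 0 in both systems, Stat3, Lgi1 and Adam23 are above 0 in both, and Socs3 lies on opposite sides; Lgi3 and Adam11 were below the FPKM filter.

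For the secreted proteins, related genes went both ways. Of the 6 LGI proteins and ADAM receptors tested, 2 were called higher at 96 h and 0 lower: Adam23, a receptor of this family, rose by 0.43 (SE 0.05, adjusted p = 6.23e-07) and Lgi1 by 0.32 (4.36e-06). Both were also higher in Pax7 than in Neo, by 0.50 and 0.53, though the call of Adam23 ended without either Pax7 library. Of 4 genes of the SPARC and testican family 3 were called lower and 0 higher at both 12 and 24 h, and 1 lower and 1 higher at 96 h. Smoc2, a secreted calcium-binding matrix protein, fell by 0.37 at 12 h, 0.56 at 24 h and 1.13 at 96 h (SE 0.10, adjusted p = 3.50e-08). Its relative Smoc1 fell by 0.18 at 12 h and by 0.18 at 24 h, and was 0.14 higher at 96 h. Spock2, a testican like Spock1, fell by 0.13 at 12 h and 0.17 at 24 h and was not called at 96 h (-0.04). The 12 h calls of Smoc2 and Spock2 ended when any 1 of 5 and any 1 of 8 libraries was left out. Among 4 spondins and thrombospondins Thbs1 rose by 0.92 (adjusted p = 1.24e-06) and Thbs2 by 1.80 (6.08e-05) at 96 h, and Spon1 (0.12) was not called. Thbs3 fell by 0.16 at 12 h, a call that ended when any 1 of 4 libraries was left out, by 0.34 at 24 h and by 0.32 at 96 h. Thbs1 was likewise higher in Pax7 than in Neo, by 1.01, and Thbs3 by 0.17, although leaving out any 1 of the 4 libraries ended the call of Thbs3.

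Genes of the enzymes' routes were called in both directions. Of 4 other tested genes of urate and purine breakdown, 1 was called lower at 24 h, Xdh, which makes urate (-0.93, adjusted p = 0.00389); it was not called at 96 h (-0.43). Aox1, an aldehyde oxidase, was 0.15 higher at 96 h, a call that ended when any 1 of 3 libraries was left out. In Pax7 against Neo 3 of this list were tested. Aox1 was 0.50 higher there and Ada, adenosine deaminase, lower (log2 fold -0.49), calls that ended without Pax7 replicate 2, and that of Ada also without Neo replicate 2 or Pax7 replicate 1. Of 4 of tyrosine breakdown, 1 was called at each time, Tat, the enzyme that acts just before Hpd, which rose by 0.19, 0.14 and 0.24 at 12, 24 and 96 h; the 24 h call ended without 0 h replicate 2 or 24 h replicate 2. In Pax7 against Neo 2 of 3 tyrosine breakdown genes tested were called lower and 1 higher. Tat was lower there, at 5.90 against 3.52 FPKM on average (log2 fold -0.73, adjusted p = 0.0021), and so was Gstz1, the isomerase that acts just before Fah (-0.36, adjusted p = 0.00647). Fah, which takes the last step of the route, was 0.76 higher. Of 7 genes of glycine cleavage and serine-glycine exchange, 2 were called higher at 96 h (Shmt1 0.27, Dld 0.15) and 0 lower; that of Dld ended without 0 h replicate 1 or 96 h replicate 3. In Pax7 against Neo 3 of the 7 were called higher, Psph (0.30), Shmt2 (0.27) and Dld (0.26), and 1 lower, Gcsh (-0.23). Each of these calls ended without Pax7 replicate 1 or without Pax7 replicate 2. That of Dld also ended without Neo replicate 2. That of Gcsh also ended without either Neo library, and with library totals, no filter or the replicate block. Amt, which encodes the aminomethyltransferase of glycine cleavage, is listed at 0 in all 16 libraries.

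Of 3 other fatty acid binding proteins tested, Fabp7 fell by 0.65 at 24 h (adjusted p = 0.00432) and rose by 0.89 from 24 to 96 h (adjusted p = 0.000387), so that it was lowest at 24 h, as was Gldc. Fabp5 was 0.89 higher in Pax7 than in Neo (0.00244) and was not called on induction. Of 14 other genes of the COPII coat and exit sites, 3 were called lower at 12 h and 3 at 24 h, and at 96 h 2 were lower and 3 higher. Mia3, a cargo receptor for large proteins, fell by 0.23, 0.26 and 0.19 at the 3 times, and the coat subunit Sec24d fell by 0.22 and 0.28 at 12 and 24 h. Sec23a fell by 0.19 at 12 h and the GTPase Sar1a by 0.11 at 24 h, calls that each ended when any 1 of 4 libraries was left out. At 96 h Preb, which activates that GTPase, was 0.23 higher and the coat subunit Sec24a 0.28 higher. From 24 to 96 h Sec24d rose by 0.15, Sec31a by 0.15 and Sec23b by 0.11, of which Sec23b lost its call without any 1 of 6 libraries. Sec16a, the larger relative of Sec16b, rose by 0.13 at 96 h, a call that ended when any 1 of 5 libraries was left out. In Pax7 against Neo 8 of the 14 were called higher and 0 lower, and of these Sec16a (0.34) kept its call whichever library was left out. Sec31a was 0.37 and Mia3 0.27 higher, calls that ended without Pax7 replicate 1 or without Pax7 replicate 2. The call of Mia3 also ended without Neo replicate 1.

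Genes next to the 10 on the chromosome were read as well. Of the 2 genes on each side of the 10, 36 were not members and 26 were tested. Called lower and higher were 3 and 1 at 12 h, 5 and 2 at 24 h, and 9 and 2 at 96 h, or 42.3% at 96 h against 33.7% of all genes. Called lower were 19.2% of them at 24 h and 34.6% at 96 h, against 8.07% and 17.4% of all genes. Beyond 0.5 in log2 fold at 96 h were 2 of them. Spef2, on the minus strand 428431 bases from Prlr, fell by 0.54 at 12 h, 0.51 at 24 h and 1.13 at 96 h (SE 0.13, adjusted p = 6.68e-07). 4933405D12Rik, whose body overlaps Fabp2 on the opposite strand, fell by 0.80 at 96 h (SE 0.21, adjusted p = 0.00478) from a mean of 4.68 scaled reads. In the GENCODE annotation the exons of Fabp2 share no bases with those of another gene, so this overlap is one of gene bodies. Whether reads of either gene were counted for the other was not tested. Prlr shares 203 exon bases with Gm21973 on its own strand, and the body of Uox overlaps Dnase2b, which was not called (-0.27 at 96 h). Near Sec16b, Brinp2 rose by 0.54 from 24 to 96 h (SE 0.12, adjusted p = 0.00496), and 2810025M15Rik was lower in Pax7 than in Neo (log2 fold -0.65, adjusted p = 0.0129), a call that ended without either Neo library. Uhrf2, 4716 bases from Gldc, was not called on induction (-0.01 at 96 h). In Pax7 against Neo it was lower (log2 fold -0.33), a call that ended without Pax7 replicate 1 or without Pax7 replicate 2. Of 16 neighbours tested in that comparison 4 were called lower and 2 higher. Together these are 37.5% against 36.8% of all genes, and those lower are 25% against 18.2%.

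The genes whose log2 folds at 12, 24 and 96 h came closest to each of the 10 were sought among 11806 other genes, by the root mean square difference over the 3 folds. Hpd had the closest match, 1110017D15Rik at 0.0127. Prlr was matched by Sln, the muscle-type regulator sarcolipin, at 0.0939 (Sln folds -0.86, -1.04 and -1.85), and Sln also came closest to Lgi4 (0.199), Fxyd3 (0.282) and Fabp2 (0.347). Kalrn was nearest to Sec16b (0.119) and Spon2 (0.225), Fam83e to Spock1 (0.164), Kdelr3 to Gldc (0.239) and Dhrs3 to Uox (0.289). These are descriptions over 4 group means that share the 0 h libraries. In Pax7 against Neo, which the search did not use, Sln (-0.86), Dhrs3 (-1.04) and Kdelr3 (-1.42) were called lower by limma, at adjusted p of 0.00336, 0.00532 and 0.00502, and Fam83e (0.01) and 1110017D15Rik (-0.03) were not.

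Several of the 10 genes are better known from liver, gut or nerve than from pituitary, so markers of those cells were read beside them. Alb, Serpina1a and Fgb of hepatocytes, Alpi, Sis, Apoa4 and Cdx2 of enterocytes, Pmp22 of Schwann cells, Col1a2, Col3a1, Dcn and Lum of fibroblasts and Ptprc and Cd3e of immune cells were under 1 scaled read in all 12 ER-Pax7 libraries. The summed 7 hepatocyte markers, nearly all of it Tat, ranged from 464 to 509 at 0 h and from 562 to 579 at 96 h; in FPKM the sum was 6.10 to 6.30 in Neo and 3.74 to 3.77 in Pax7. Ttr of that list, at 4.33 scaled reads at 0 h, was called lower at 12 h (-0.93), 24 h (-0.94) and 96 h (-0.72), calls that ended when any 1 of 4, 1 and 3 libraries was left out. The summed enterocyte markers went from 21.7 to 24.9 at 0 h to 16.0 to 20.1 at 96 h, and those of Schwann cells from 1826 to 1952 to 1859 to 1897. In FPKM the Schwann cell sum was 13.7 to 14.0 in Neo and 22.3 to 22.5 in Pax7. Mbp and Egr2 made up most of it (means of 1407 and 479 scaled reads at 0 h). Egr2 was 0.82 higher in Pax7 than in Neo. At 96 h its log2 fold was -0.14, a call that ended without 0 h replicate 1 or 96 h replicate 1. Sox10, at a mean of 1.29 scaled reads at 0 h, was 0.71 higher at 96 h, a call that ended when any 1 of 4 libraries was left out. The corticotrope markers, with Pomc the bulk of them, summed to 103277 to 108744 at 0 h, 92370 to 97392 at 12 h, 84981 to 87538 at 24 h and 102736 to 109963 at 96 h, so 12 h and 24 h lay below 0 h without overlap. At 24 h Pomc fell by 0.32, the convertase Pcsk1 by 0.20 and the corticotropin-releasing hormone receptor Crhr1 by 0.91, while Neurod1 was 0.23 higher. At 96 h 1 of the 6 markers was called lower, Crhr1 (-0.54). Called higher were 4, Neurod1 (0.30), Tbx19 (0.28), Pitx1 (0.25) and Pcsk1 (0.14), of which Pitx1 lost its call without 96 h replicate 1. In Pax7 against Neo 3 of the 6 were called lower, Crhr1 (-0.55), Pitx1 (-0.23) and Neurod1 (-0.20), and 1 higher, Pcsk1 (0.74). The calls of the 3 lower genes each ended without Neo replicate 1 or without Pax7 replicate 1. Those of Pitx1 and Neurod1 also ended with library totals or the replicate block. The melanotrope markers went from 3689 to 3976 at 0 h to 4448 to 4677 at 96 h, a sum made up mostly of Megf11 (a mean of 1934 at 0 h and 2054 at 96 h) and of Pax7 itself (1726 and 1893), while Pcsk2 had means of 187 and 518 and Oacyl of 1.59 and 119. Of 4 tested, 3 were called higher at 96 h, Oacyl (5.57), Pcsk2 (1.46) and Pax7 (0.13), the last not without 0 h replicate 3. In Pax7 against Neo all 4 were called higher, and the sum was 0.585 to 0.636 FPKM in Neo and 6.18 to 6.28 in Pax7. Oacyl, Pcsk2 and Pax7 passed the FPKM filter through the Pax7 libraries alone. Of the immune markers Lyz2 made up most, and their sum was 59.7 to 65.2 at 0 h and 47.9 to 50.0 at 96 h; in FPKM it was 0.796 to 0.834 in Neo and 0.287 to 0.348 in Pax7. The fibroblast markers summed to 23.7 to 32.1 at 0 h and 18.0 to 23.7 at 96 h, and in FPKM to 0.242 to 0.250 in Neo and 0.230 to 0.298 in Pax7. Whether these markers have a part in the values of the 10 genes was not tested.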

How the data were processed

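Groups and replicate numbers come from the labels. The 10 genes and the gene lists were chosen with earlier results of these data known. Per the submitters' processing notes, the build was mm10 (GRCm38) and the tools were TopHat, HOMER and edgeR, with no version given. Per the file headers, the authors counted ER-Pax7 reads over RefSeq exons with no strand option, and the deposited signal holds them scaled to 1 library total (7213570 by the values). Per the file headers, Neo and Pax7 reads were counted by the authors over gene bodies, introns included, and deposited as FPKM, with 2 decimals. Deposited log2 fold, p-value and FDR columns, which the authors made with edgeR per the file headers, were not used. Low scaled values come in whole steps of 1 read, from which reads were recovered; those behind FPKM are estimates.

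Neither table holds raw counts, so limma 3.58.1 (trend, empirical Bayes; R 4.3.3) on a log2 scale replaced the planned count test. TMM factors (edgeR 4.0.16; 0.959 to 1.045) were applied, a pseudocount of 1 scaled read or 0.1 FPKM was added, and genes at 1 or more in 3 libraries (15188) or 0.1 FPKM in 2 (13393) were kept. The 12 ER-Pax7 libraries shared 1 model. Benjamini-Hochberg adjustment ran over all genes of a table, with a threshold of 0.05. Fold changes are on the log2(value + pseudocount) scale, so those of low genes are understated. Tested on simulated data, the step called 200 of 200 changed genes (log2 change of 1) and 12 others of 15188. The changed genes were drawn only from those with many reads, with the same simulated dispersion for every gene, for 96 h against 0 h. The simulation therefore does not cover genes as low as Gldc or smaller changes. By rule all 10 genes are named, up to 3 genes of each pathway list called in a comparison, by smallest adjusted p, and called neighbours beyond 0.5 in log2 fold; others and markers were named with their values seen. Genes of likeness are the nearest 1. The listed genes around Fxyd3 are not reported here. Alternatives were other scaling, pseudocounts, filters, a replicate block, only the 2 groups compared, edgeR's quasi-likelihood test on the reads, and leaving out each library.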

Additional observations from a re-analysis of the deposited data

How the results depend on the processing

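All 600 values of the 10 genes against 0 h, over 20 alternatives each, kept their sign. A pseudocount of 5 moved the log2 fold of Gldc at 24 h from -1.27 to -0.83, and 0.5 FPKM moved Prlr in Pax7 against Neo from -1.20 to -0.51, Lgi4 from -1.06 to -0.51 and Hpd from -2.11 to -1.26. Genes called between 12 and 24 h numbered 26, against 17 with no filter, 16 with only the 2 groups compared and 54 with the replicate block, and 11 to 31 without 1 library (16 without 12 h replicate 1, 11 without 24 h replicate 1). Of the 10 genes 5 were called there, against 1 with no filter (Fabp2) and 2 with only the 2 groups; without 1 library it was 1 to 5. The count was 2 without 0 h replicate 2 or any 12 h library, 1 without 24 h replicate 1 and 3 without 24 h replicate 2. With edgeR 4 were called, Gldc missing at adjusted p = 0.0569, and with library totals 4, Spock1 missing (adjusted p = 0.0706). From 24 to 96 h 6 of the 10 were called under every alternative but one, 6 to 7 without 1 library, while all genes called ranged from 1269 (without 96 h replicate 2) to 2115. Pax7 against Neo called 4923 genes, and 1505 to 2418 without 1 library, where the lone sample is assumed to vary like the other group; with library totals 2600 were higher and 1241 lower, against 2486 and 2437. Same-numbered libraries did not deviate together in every pair of groups (correlations -0.0824 to 0.144). Among 0, 12 and 96 h, same-numbered libraries correlated at 0.0142 to 0.0873 and others at 0.00821 or less. In pairs with 24 h the 2 kinds overlapped. Whether the numbers mark libraries made together is not given by the labels, and the main fit did not pair them. With the replicate block 1271, 2515 and 5755 genes were called at 12, 24 and 96 h. From 24 to 96 h 2506 were called, and in Pax7 against Neo 3404, with 5 and 6 of the 10 in the 2 steps. Depth limits Gldc (30 to 40 reads at 24 h) and Fabp2 most, and the 2 decimals of FPKM leave Spock1 and Gldc without a comparison; intervals from reads would cover counting error only.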
